A study of Rattus norvegicus with 12 samples.

Results

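The family of miR-204 and miR-211 was followed in aortas of female spontaneously hypertensive rats (SHR), which become hypertensive without treatment. Its members were chosen by name, as the rows whose identifier without the arm suffix is miR-204 or miR-211. The family came into view with the treatment difference of miR-204-5p already known, so all differences between the groups are given here as a description, without a p-value, and nothing is supported by them. The rule found 3 of the 641 listed miRNAs: rno-miR-204-5p, rno-miR-204-3p and rno-miR-211-5p. Small RNA was sequenced from 12 aorta samples, 6 from rats given saline (control) and 6 from rats under the treatment label EWH. The series title speaks of egg white-derived peptides that lower blood pressure. All 12 samples share strain, sex and tissue. The sources used here give no dose, duration or age. They do not say that each sample is a different rat, so the spread behind a p-value may be partly technical.

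MiR-204 and miR-211 are close relatives that are processed from introns of genes for melastatin-type TRP cation channels, miR-204 from Trpm3 and miR-211 from Trpm1. A miRNA pairs with messenger RNAs mainly through its seed, so relatives with the same seed can share targets. MiR-204 is known from retinal pigment epithelium, choroid plexus and other tissues, where its known targets include the bone transcription factor Runx2, and miR-211 is known from pigment cells. In RefSeq's gene table for the assembly GRCr8 the hairpins Mir204 and Mir211 each lie on chromosome 1 within the span of 1 other gene, Trpm3 and Trpm1 respectively, and neither overlaps another miRNA hairpin. That table has no exons, so the intronic position itself was not read from it.

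The mature sequences of the 3 members are shown because 2 of them differ by a single base. They are RefSeq's, from GRCr8, written 5′ to 3′ with the seed (bases 2 to 8) in capitals.
rno-miR-204-5p: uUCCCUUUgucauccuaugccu
rno-miR-211-5p: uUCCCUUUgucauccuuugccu
rno-miR-204-3p: gCUGGGAAggcaaagggacguu
The 5p arms share 21 of 22 positions and the whole seed UCCCUUU. The only substitution from miR-204-5p to miR-211-5p is A17U, counted from 1 at the 5′ end. No other mature miRNA among the 724 in RefSeq's rat table has this seed, and none shares the seed CUGGGAA of miR-204-3p. Within these 22 bases, reads of the 5p arms can therefore be told apart only at base 17. The sources used here do not say how reads that match both were assigned.

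The hairpins show from which stretch of each precursor the arms come. Mature arms are in capitals; 17 bases separate the arms in Mir204 and 14 in Mir211.
Mir204: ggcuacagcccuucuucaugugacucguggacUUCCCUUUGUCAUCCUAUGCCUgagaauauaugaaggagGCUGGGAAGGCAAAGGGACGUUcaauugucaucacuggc
Mir211: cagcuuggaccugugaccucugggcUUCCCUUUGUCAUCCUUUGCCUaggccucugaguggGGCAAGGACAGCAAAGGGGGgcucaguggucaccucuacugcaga
The second capital stretch of Mir211 is miR-211-3p, which is not among the 641 listed miRNAs.

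Values are deposited reads per 1000000 (rpm) of library totals between 23887799 and 24772944 reads, of which 76.4% to 80.6% lay in the listed miRNAs. A single read was worth 0.0404 to 0.0419 rpm. A value of 0 would have allowed up to 0.121 to 0.126 rpm, the worth of 3 reads, counting error only; no member was at 0 in any library. The tissue label was checked against miR-143 and miR-145, both abundant in contractile smooth muscle. Their 4 arms summed to 347013 to 426858 rpm in controls and 331968 to 428677 rpm in EWH. Nearly all of this was miR-143-3p, at 345360 to 424317 rpm in controls and 330147 to 426996 rpm in EWH. MiR-145-5p read 755 to 1551 rpm in controls and 781 to 1228 rpm in EWH. Libraries EWH 3 and EWH 4 had the highest values of both miR-204 arms and of the miRNAs most like them, though not of miR-211-5p, so results that rest on them are also given without them.

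MiR-204-5p was by far the most abundant member, at a mean of 193 rpm over the 12 libraries. In controls 1 to 6 it read 106, 111, 154, 75.5, 55.7 and 81.2 rpm. In EWH 1 to 6 it read 139.9, 111, 425, 611, 216 and 231 rpm. EWH 3 and EWH 4 were the highest, EWH 5 and EWH 6 also lay above every control, and EWH 1 and EWH 2 lay among the controls. The mean was 97.2 ± 34.5 rpm in controls against 289 ± 192 rpm in EWH (SD, n = 6 per group), a 2.97-fold ratio of means and a 2.39-fold ratio of medians. By abundance miR-204-5p held places 80 to 107 in the control libraries and 46 to 81 in the EWH libraries.

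On the log2(rpm + 1) scale, used for all differences between group means below and understating the change of low miRNAs, miR-204-5p averaged 6.54 ± 0.51 in controls against 7.93 ± 0.93 in EWH (SD, n = 6 per group). The difference of 1.38 (SE 0.40) compares with a pooled SD of 0.75 between libraries of a group. Without EWH 3 and EWH 4 the EWH mean was 174 ± 58.2 rpm (SD, n = 4), or 1.79 times the control mean, and the log2 difference was 0.85 (SE 0.30). In that smaller set miR-204-5p had the 15th highest difference of the 303 tested miRNAs, against the 18th with all libraries.

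MiR-204-3p, the other arm of the same hairpin, was much scarcer, and its 5 highest libraries came in the same order. In controls 1 to 6 it read 2.64, 1.75, 2.84, 1.02, 1.03 and 1.88 rpm. In EWH 1 to 6 it read 1.996, 2.18, 8.46, 13.5, 3.57 and 4.60 rpm. The same 4 EWH libraries lay above every control as for the 5p arm, and the same pair lay among the controls. The mean was 1.86 ± 0.77 rpm in controls against 5.71 ± 4.47 rpm in EWH (SD, n = 6 per group), a 3.07-fold ratio of means, and the log2 difference was 1.03 (SE 0.37). The ratio of means was 1.66-fold and the log2 difference 0.51 (SE 0.25) without EWH 3 and EWH 4. Since the arm sits near the added 1 rpm, the difference of 1.03 over all libraries was 0.56 with 5 rpm added. By edgeR on the recovered reads of all libraries it was 1.58.

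MiR-211-5p stayed below 1.1 rpm throughout, and how far its groups overlapped turned on 1 library, control 3. It rested on 4 to 26 reads a library. In controls 1 to 6 it read 0.487, 0.292, 1.07, 0.163, 0.454 and 0.490 rpm. In EWH 1 to 6 it read 0.652, 0.727, 0.325, 0.617, 0.997 and 0.544 rpm. All 6 EWH libraries lay within the range of the controls, whose top was set by control 3. Against the 5 other controls, which reached 0.490 rpm at most, 5 of the 6 EWH libraries lay above. Leaving out the same control gave 5 of 6 for miR-204-5p and 4 of 6 for miR-204-3p. Control 3 was the highest control for all 3 members, so leaving it out could not lower these counts. How many of all miRNAs show such counts without control 3 was not computed, and nothing is read from them. Means were 0.493 ± 0.31 rpm in controls against 0.644 ± 0.22 rpm in EWH (SD, n = 6 per group). Their ratio was 1.31, or 1.71 without control 3, and the log2 difference was 0.15 (SE 0.14), or 0.25 (SE 0.11) without control 3.

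**Figure D1:**
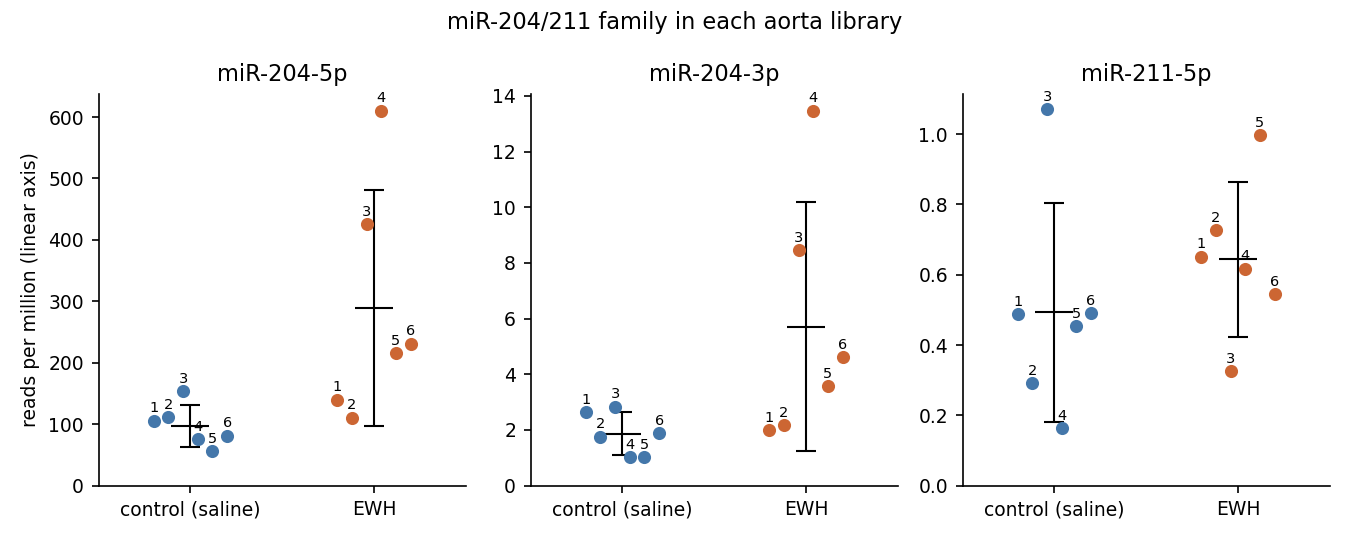
Abundance in rpm (linear axis) of miR-204-5p, miR-204-3p and miR-211-5p in the 6 control and 6 EWH libraries; points are libraries with their replicate number, bars are the mean and SD. In both miR-204 panels EWH 3 and 4 are highest and EWH 1 and 2 lie among the controls. For miR-211-5p all 6 EWH libraries lie within the range of the controls, whose top is set by control 3.

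Of the 3 members the 2 miR-204 arms passed the filter of 1 rpm or more in 6 or more of the 12 libraries, as did 303 miRNAs in all; miR-211-5p reached 1 rpm in 1 library. Of the 303, limma called none (0.00%) at a Benjamini-Hochberg adjusted p under 0.05, with 70 at an unadjusted p under 0.05. On the recovered reads edgeR called 34 (11.2%) higher and 6 (1.98%) lower in EWH, both miR-204 arms among the higher. DESeq2 called 63 (20.8%) in either direction, both miR-204 arms among them, and was not rerun with libraries left out. EdgeR called neither arm without control 1, 4, 5 or 6, without EWH 3 or EWH 4, without these last 2 together, or with the replicate number as a block. MiR-204-3p was also not called without control 2 or EWH 6, and kept its call in 5 of 15 alternatives, miR-204-5p in 8 of 16. Limma called miR-204-5p without EWH 2. A pattern of at least 4 EWH libraries above every control, as both arms showed, was seen in 38 of the 303 (12.5%). These counts are the background of a contrast that was known when the family was chosen, and nothing about the family is read from them.

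While the level of miR-204-5p spanned 55.7 to 611 rpm, its share of the reads of both arms spanned 97.6% to 98.7%. The lowest share was that of control 1 (95% Wilson interval 96.9% to 98.1%) and the highest that of control 4 (98.0% to 99.1%); intervals cover counting error only. In EWH 4, which had the most reads of the hairpin (14833 of the 5p and 327 of the 3p arm), the share was 97.8% (97.6% to 98.1%). There were 54.9 ± 12.7 reads of the 5p arm per read of the 3p arm in controls against 54.5 ± 9.10 in EWH (SD, n = 6 per group), a difference smaller than the spread within either group. On the scale with 1 rpm added, the log2 ratio of the arms differed by 0.35 (SE 0.13) between the groups; from the reads with nothing added the difference was 0.01 (SE 0.17). The first of these values depends on the amount added, which is of the size of the scarce arm itself, and it is not read as a difference between the arms. Among the 67 hairpins with both arms past the filter, 43 yielded mainly the 5p arm, and 10 of the 67 had a higher 5p share than miR-204.

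Whether the arms moved together inside a group does not use the treatment contrast, and was tested. With each group's mean taken away, log2(rpm + 1) of miR-204-3p tracked that of miR-204-5p over the 12 libraries with Pearson r = 0.96 (two-sided exact permutation within groups, p = 0.000102; adjusted p = 0.000204 over 2 relations). Over the 302 other tested miRNAs the median within-group r with miR-204-5p was 0.28; miR-204-3p was 2nd highest, after miR-384-3p at 0.98. On ranks within groups the r of the arms was 0.86 (exact permutation p = 0.00222). Without EWH 3 and EWH 4, which are also the pair of libraries farthest from the median of miR-204-5p, the within-group r was 0.88 (exact permutation p = 0.00625). Within controls alone r was 0.86 and within EWH alone 0.985. For miR-211-5p against miR-204-5p the within-group r was 0.01 (exact permutation p = 0.98, also after adjustment). At 4 to 26 reads of miR-211-5p a library, counting error and the added 1 rpm can hide a relation. The absence of a relation is therefore not read from this r.

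Across the libraries miR-211-5p came to between 0.0766% of the reads of miR-204-5p, in EWH 3, and 0.815%, in control 5. EWH 3 and EWH 4, with 10450 and 14833 reads of miR-204-5p, gave 8 and 15 reads of miR-211-5p, where control 3, with 3745 reads of miR-204-5p, gave 26. Control 3 stood apart from the other controls in miR-211-5p, and EWH 4, at 0.617 rpm, lay above the 5 others, at most 0.490 rpm. EWH 5, EWH 2 and EWH 1, all with fewer reads of miR-204-5p than EWH 3, gave 24, 18 and 16 reads of miR-211-5p. The libraries richest in miR-204-5p were thus not those richest in its near-identical relative.

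**Figure D2:**
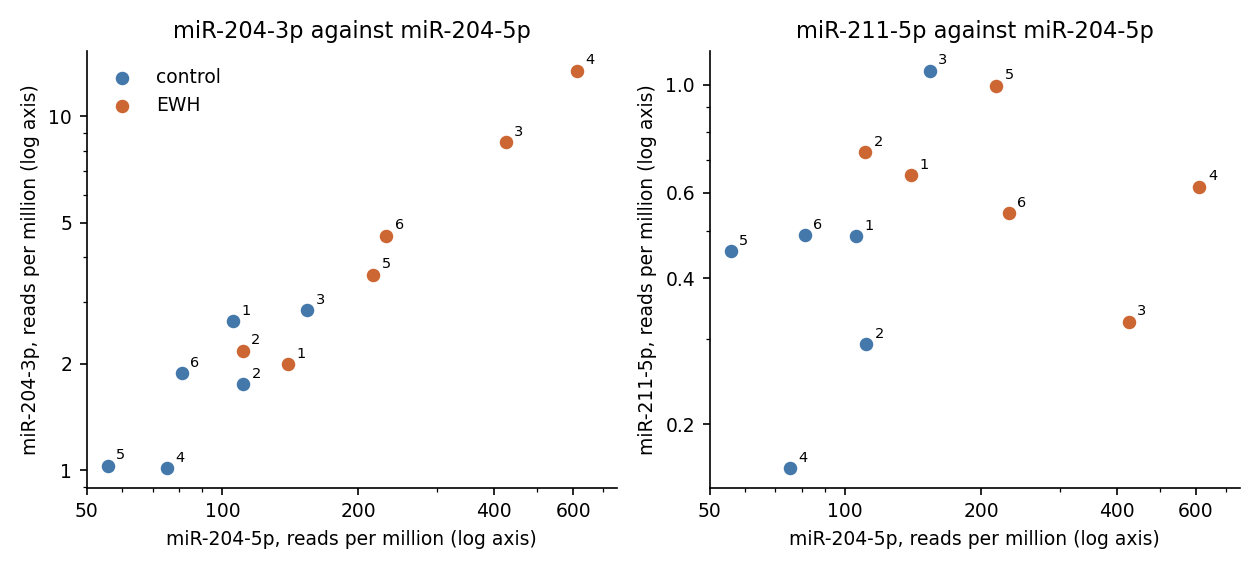
MiR-204-3p (left) and miR-211-5p (right) against miR-204-5p, in rpm on log axes; each point is a library, coloured by group and marked with its replicate number. The arms of miR-204 lie along a rising line over both groups, whereas miR-211-5p has no such line. In EWH 3 and 4 miR-211-5p is lower than in control 3, which stood apart from the other controls. EWH 4 lies above the 5 other controls.

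Among miRNAs with a mean of at least 10 rpm, the 8 whose pattern was most like that of miR-204-5p comprised 3 of the neuron and glia list described below and 5 of the Dlk1-Dio3 imprinted region, a run of hairpins expressed from the maternal chromosome. Likeness was Pearson's r of log2(rpm + 1) over the 12 libraries and is a description: the points share their libraries, their totals and the group difference. Over the 302 other tested miRNAs the median r was 0.08, and 27 exceeded 0.9. MiR-204-3p ranked 3rd of the 302, at r = 0.97. These 8 had r between 0.93 and 0.97. They were miR-323-3p, miR-9a-5p, miR-338-3p, miR-338-5p, miR-409b, miR-433-3p, miR-434-5p and miR-3543. By RefSeq's gene order 5 of the 8 lie between Dlk1 and Dio3, namely miR-323-3p, miR-409b, miR-433-3p, miR-434-5p and miR-3543. The last 2 come from overlapping hairpins and may share reads.

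MiR-323-3p stood first of these 8, with r = 0.97 over all libraries, 0.92 without EWH 3 and EWH 4, and 0.95 within groups. It read 1.73 to 7.43 rpm in controls, 45.9 and 80.0 rpm in EWH 3 and EWH 4, and 4.97 to 19.5 rpm in the other EWH libraries. MiR-9a-5p, abundant in neural cells, had r = 0.96, or 0.91 without EWH 3 and EWH 4. It read 39.6 to 89.9 rpm in controls, 436 and 489.8 rpm in EWH 3 and EWH 4, and 62.3 to 214 rpm in the other EWH libraries. The arms of miR-338, whose hairpin lies within the span of Aatk and which is known from myelinating glia, had r = 0.96 for the 3p and 0.95 for the 5p arm, and 0.90 and 0.89 without those 2 libraries. Of the other 4, miR-409b had the highest means, at 16.3 ± 7.06 rpm among controls and 125 ± 130.4 rpm under EWH (SD, n = 6 per group), with r = 0.95, or 0.83 without EWH 3 and EWH 4. All 8 were highest in EWH 4. Under 10 rpm, and in neither of these groups, miR-384-3p and miR-384-5p ranked 1st and 4th of all 302, named after their values were seen. The closest was miR-384-3p (r = 0.99, and 0.96 without EWH 3 and EWH 4), with 0.372 to 1.77 rpm in controls and 0.767 to 8.48 rpm in EWH.

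**Figure D3:**
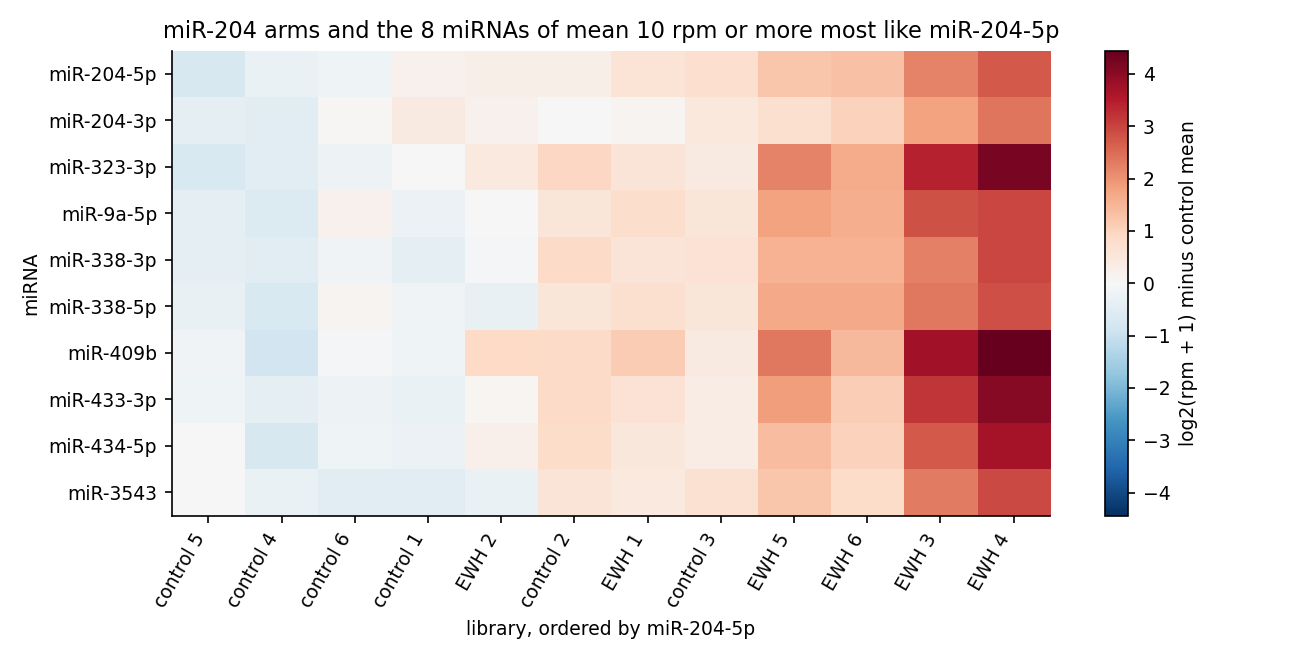
Log2(rpm + 1) minus the control mean (colour) for both miR-204 arms and the 8 miRNAs most like miR-204-5p (rows), in the 12 libraries ordered by miR-204-5p (columns). The 4 columns on the right, EWH 5, 6, 3 and 4, are the reddest in each row, and EWH 4 is the highest in all.

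Markers of other cells that an aorta sample could hold were read beside the family. In the list for neurons and glia, the EWH mean was the higher one for 8 of 10 tested arms, against 39.9% of all 303 tested miRNAs. Without EWH 3 and EWH 4 it was 6 of 10, against 34.3%. The median log2 difference was 1.24, or 0.70 without EWH 3 and EWH 4, where the medians over all 303 tested miRNAs were −0.06 and −0.11. EdgeR called 4 of the 10, all higher (miR-9a-5p, both arms of miR-338 and miR-7b), against 11.2% of all tested miRNAs, and limma none; without EWH 3 or EWH 4 edgeR called no miRNA at all. Its 26 listed arms summed to 1040 to 2098 rpm in controls and 1070 to 3565 rpm in EWH, with 2459 rpm in EWH 3 and 3565 rpm in EWH 4. Its most abundant members were miR-128-3p, at 770 ± 264 rpm in controls against 683 ± 126 rpm in EWH, and miR-218a-5p, at 442 ± 114 and 581 ± 301 rpm (SD, n = 6 per group). MiR-124-3p, a defining neuronal miRNA, read 0.0406 to 0.626 rpm in controls and 0.161 to 4.98 rpm in EWH, and miR-219a-5p, known from oligodendrocytes, was at 0 in 5 controls and 4 EWH libraries. The mean log2 value of the tested members followed miR-204-5p with r = 0.93 over the 12 libraries and 0.75 without EWH 3 and EWH 4. These r include the group difference, and miR-9a-5p and both miR-338 arms are also among the 8 most like miR-204-5p. For the Runx2 list below, which shares miR-218a and miR-338, r was 0.84, or 0.51 without EWH 3 and EWH 4. For the remaining lists r lay between −0.42 and 0.21, or between −0.60 and 0.14 without those 2 libraries. The part of neurons and glia in the level of miR-204 was not tested. In bulk samples fewer cells of a type and less RNA per cell cannot be told apart.

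A joint list for epithelium and pigmented eye tissue, where miR-204 is also known, was read in the same way. It does not separate pigmented eye tissue from other epithelium. Of 9 tested arms 2 had a higher and 7 a lower mean (median log2 difference −0.30), where 60.1% of all tested miRNAs had a lower one. EdgeR called 2 of the 9 lower (miR-200a-3p and miR-200b-3p), against 1.98% of all tested, and limma none. Without control 1, 4, 5 or 6, or EWH 3 or EWH 4, edgeR called no miRNA at all. In miR-200b-3p control 6, at 501 rpm, stood apart from the other controls, at most 176 rpm. Without EWH 3 and EWH 4, 1 of the 9 had a higher mean and 8 a lower one (median log2 difference −0.48). Of all tested miRNAs 34.3% then had a higher mean. The list summed to 68.7 to 821 rpm in controls and 94.1 to 204 rpm in EWH, with 156 and 196 rpm in EWH 3 and EWH 4. Its leading members were miR-203a-3p, at 179 ± 205.2 rpm in controls against 99.0 ± 43.8 rpm in EWH, and miR-200b-3p, at 125 ± 196 and 6.87 ± 2.83 rpm (SD, n = 6 per group). MiR-184, known from lens and cornea, did not pass the filter, at 0.0813 to 6.34 rpm in controls and 0.251 to 2.06 rpm in EWH.

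Of the remaining lists the median log2 difference was −0.11 for 4 smooth muscle arms and −0.13 for 2 endothelial arms. It was −0.14 for 5 skeletal and cardiac muscle arms and −0.24 for 9 leukocyte and erythrocyte arms, against −0.06 over all 303 tested miRNAs. Limma and edgeR called none of these arms. Of all 303, limma called 0.00% and edgeR 11.2% higher and 1.98% lower, so with so few arms nothing is read from the lack of calls. In the muscle list miR-1-3p, at 394 ± 238 rpm in controls against 807 ± 273 rpm in EWH, and miR-499-5p, at 262 ± 133.1 and 157 ± 29.1 rpm (SD, n = 6 per group), differed in opposite directions. The endothelial miR-126a-3p read 5855 ± 3259 rpm in controls against 5214 ± 993 rpm in EWH (SD, n = 6 per group).

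Runx2, which drives bone formation and is active in calcifying vessels, is a known target of miR-204 and of several other miRNAs. Messenger RNA was not measured here. A list of 10 other miRNAs reported to act on Runx2 gave 11 tested arms, none of them from miR-135a or miR-137. Arms were taken by name, whichever arm is the one reported to act on Runx2. Of the 11 arms the mean under EWH was higher for 5 and lower for 6, and the median log2 difference was −0.05. EdgeR called 2 of the 11, both arms of miR-338, which is also a glial miRNA, a share near the 11.2% of all tested miRNAs, and limma called none. The most abundant were miR-30c-5p, at 1890.5 ± 149.96 rpm in controls against 1770.0 ± 151 rpm in EWH, and miR-23a-3p, at 887 ± 282 and 746 ± 189 rpm (SD, n = 6 per group), with log2 differences of −0.10 (SE 0.08) and −0.23 (SE 0.22). For both, the 2 groups overlapped. The list overlaps that for neurons and glia in miR-137, miR-218a and miR-338, that for epithelium in miR-205 and that for muscle in miR-133a.

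**Figure D4:**
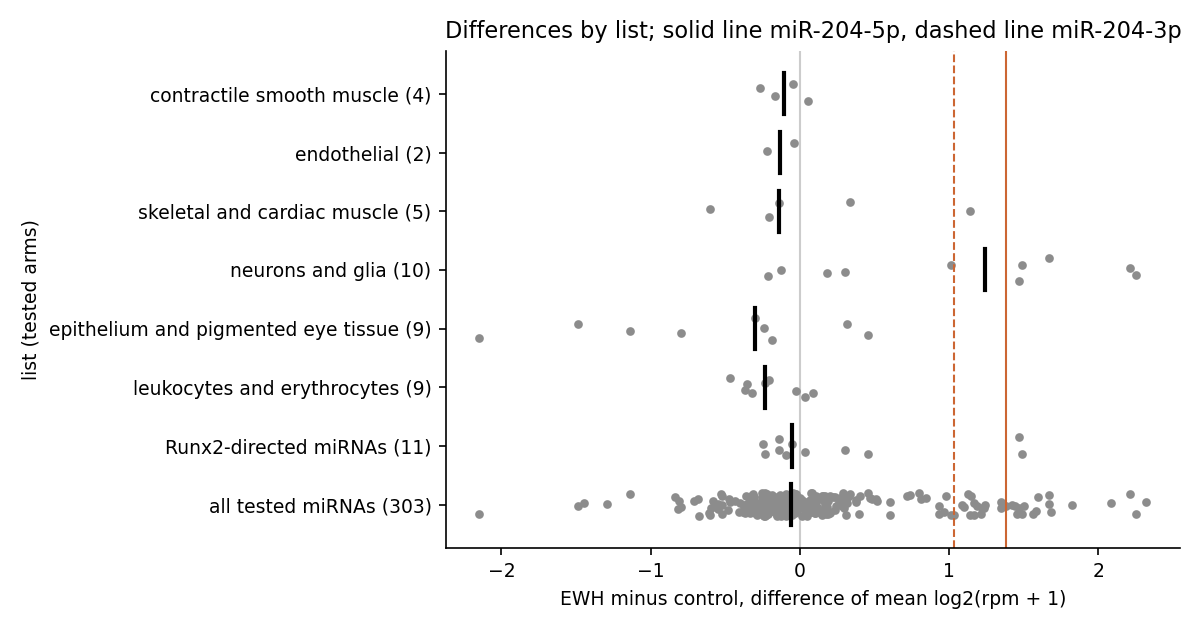
Difference of mean log2(rpm + 1), EWH minus control, for each tested arm (points) of the 7 lists and for all 303 tested miRNAs, with medians as black bars; the solid line marks miR-204-5p and the dashed line miR-204-3p. The neuron and glia list has a median of 1.24, between the 2 lines, and the other 6 medians lie between −0.30 and −0.05.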

How the data were processed

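Trizol RNA received adaptors at both ends, was amplified by RT-PCR and cut to inserts of 15 to 35 nt, per the labels' protocols; per the submitters' processing notes the build was rn6. Which aligner, counter and annotation were used is not given in the sources used here. Values in 1 table deposited by the authors are in RPM units (it is named for TPM): each value is a whole number of reads per 1000000 of a library total, and 100% of values gave whole reads within 0.01 read. Columns were mapped through each sample's description, with none left over. The members, lists and tests were chosen with earlier results of these data known. Groups were compared with limma 3.58.1 (trend) on log2(rpm + 1) in R 4.3.3, for miRNAs reaching 1 rpm in 6 or more libraries, with Benjamini-Hochberg adjustment at 0.05; edgeR 4.0.16 (quasi-likelihood) and DESeq2 1.42.0 used the recovered reads. The arms were correlated after removal of group means, with exact permutation over 518400 orders. MiRNAs were named by rule: the family, sharers of a seed, the 8 most like miR-204-5p with a mean of at least 10 rpm, and the 2 most abundant of each of 7 lists; miR-384-3p, miR-384-5p, miR-7b, miR-124-3p, miR-219a-5p and miR-184 were named after their values were seen. All 3 members matched RefSeq's sequences (GRCr8). The procedures were tested on simulated data in which miRNAs varied independently of each other. Here 27 miRNAs followed miR-204-5p with r above 0.9, so the simulation lends the calls no support. Alternatives were other filters, pseudocounts, scalings and tools, a replicate block and libraries left out.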

Additional observations from a re-analysis of the deposited data

Results flagged for a closer look

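Among 52 groups of 6 libraries (26 measures), 4 had a library whose gap to the nearest other exceeded Dixon's 95% critical share of the group's range; chance sets a library apart in about 1 group in 20. In miR-211-5p it was control 3, at 1.07 rpm against at most 0.490 rpm in the other controls. Control 1 stood apart in miR-126a-3p, at 12220 rpm against at most 5415 rpm, and in miR-203a-3p, at 572 rpm against at most 209 rpm. Control 6 stood apart in miR-200b-3p, at 501 rpm against at most 176 rpm. No group of either miR-204 arm had such a library.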

How the results depend on the processing

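MiR-204-5p had a higher mean in EWH in all 23 alternatives (log2 difference 0.85 to 1.61) and miR-204-3p in all 22 (0.51 to 1.59). The arm ratio was positive in all 21, moving to 0.056 with 0.1 rpm added, 0.79 with 5 rpm added and 0.0082 from reads with nothing added, an alternative chosen after seeing the data. The within-group correlation of the arms passed the exact permutation test in all 19 (r 0.86 to 0.97, largest p = 0.00625). MiR-211-5p ran from 0.04 with 5 rpm added to 0.42 with 0.1 rpm added. The limma count of 0 was 8 after quantile normalization, 1 without EWH 3 and EWH 4 together, and 0 to 24 with a library left out (24 without EWH 2). The edgeR count of 40 was 8 at a filter of 10 rpm, 0 without EWH 3 and EWH 4 together, and 0 (without control 1, 4, 5 or 6, or EWH 3 or 4) to 45 (without EWH 1) with a library left out; DESeq2 gave 63. The cause of these moves was not tested. With the replicate number as a block the edgeR count was 0 and the miR-204-5p difference stayed 1.38 (SE 0.38); numbers were no sign of pairing (correlations of same-numbered libraries −0.50 to 0.31; none was best with its own number). The filter at 10 rpm leaves miR-204-3p out. Depth limits miR-211-5p, at 4 to 26 reads a library. The counts of list members without EWH 3 and EWH 4 and the overlap of groups without control 3 were also chosen after seeing the data.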
